A study of Mus musculus with 24 samples.

Results

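Cenpa, the gene for the centromere-specific histone H3 variant CENP-A, was examined with 7 other genes. The proteins of Hjurp, Oip5, Mis18a, Cenpc1 and Cenpn load, license or bind it, and those of Cenpe and Cenpf join the outer kinetochore. The 8 genes were taken by symbol from a count table of 47967 genes, of which 17576 passed a filter on low counts, and all 8 were among those. Cenpa was picked because its counts were higher with reprogramming cocktails than in mock-treated cells while other cell division genes were lower, and the other 7 because they are its chaperone, licensing factors and centromere partners. The values of each cocktail against mock, and their change between the days, are therefore given as a description, and nothing is read from counts of calls in them. Tests are read for cocktail against cocktail and for day 7 against day 2 within an arm, comparisons that the choice did not name. The day tests use the same mock and cocktail libraries as the choice, so their p-values are not independent of it.

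The cells were mouse embryonic fibroblasts (MEFs) of strain C57BL/6, prepared from embryos at E13.5 to E14.5, and total RNA was sequenced in 24 libraries, 3 in each of 8 groups. Cells were mock treated or transduced with retroviruses 2 times for 24 hours and then kept in induction medium, and RNA was taken at day 2 or day 7. GMT carries Gata4, Mef2c and Tbx5, 3 heart transcription factors, GHMT adds Hand2, and AGHMT adds Akt1, a growth factor signalling kinase, to GHMT. Each arm had 3 libraries at each day. The labels do not say whether mock cells received an empty virus, and nothing in them says that libraries of a group are separate cultures. A p-value here is therefore set against the spread of libraries, and that spread may be technical.

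CENP-A replaces histone H3 in part of the nucleosomes of the centromere and marks the place where the kinetochore forms. Unlike most histones it is loaded after mitosis: the Mis18 complex, which includes Mis18a and Oip5 (also called Mis18-beta), licenses the centromere, and the chaperone HJURP deposits new CENP-A. CENP-C and CENP-N bind the CENP-A nucleosome and carry the inner kinetochore, while CENP-E, a kinesin motor, and CENP-F, a large coiled-coil protein, join its outer layer in dividing cells, and transcripts of most of these genes are highest in G2 and mitosis.

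Total counts ran from 29345957 to 37495178 per library. Hand2 was at 3.08 to 8.05 CPM (counts relative to the library total, per 1000000) in mock and GMT libraries and at 935 to 1188 CPM in GHMT and AGHMT libraries. Akt1, which fibroblasts also express, was at 359 to 403 CPM in the groups without it in the cocktail and at 445 to 485 CPM in AGHMT. The fibroblast label was checked with 10 fibroblast markers, whose summed level was 30052 to 32759 CPM in mock cells at day 2 and 54462 to 60994 CPM at day 7. AGHMT day 2 replicate 3 stood furthest from its group, with a root mean square deviation of 0.26 log2 units over genes against 0.16 to 0.21 in the other 23 libraries.

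The promoters of the 8 genes were read from RefSeq (GRCm38.p6, 250 bases before to 50 bases after each start site; all 8 matched), because division genes share short promoter elements through which they are switched together. The cell cycle genes homology region (CHR), searched as TTTGAA and as TTTAAA on both strands, is bound by the repressive DREAM complex and its activating relatives, and the CCAAT box is bound by NF-Y. Matches to AGATAA, which GATA factors can bind, and to CATCTG, an E-box form that HAND-type factors can bind, were searched in the same way. Cenpa, Hjurp and Cenpf are shown for their directions against mock and for their CHR letters. Cenpa was higher with every cocktail, Hjurp and Cenpf were lower, and all 3 windows hold TTTGAA near the start site. The windows were picked on both, and the part of the CHR in the differences was not tested. The windows are written 5′ to 3′ on the strand of the gene, with motif matches of either orientation in capitals.
Cenpa, chr5:30666636-30666935, plus strand: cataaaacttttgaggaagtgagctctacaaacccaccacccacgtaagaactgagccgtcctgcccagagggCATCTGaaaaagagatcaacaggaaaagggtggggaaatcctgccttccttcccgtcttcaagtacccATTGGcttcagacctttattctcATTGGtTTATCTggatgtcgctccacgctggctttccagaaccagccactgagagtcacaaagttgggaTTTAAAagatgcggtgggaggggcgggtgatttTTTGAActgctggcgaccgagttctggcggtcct
Hjurp, chr1:88277530-88277829, minus strand: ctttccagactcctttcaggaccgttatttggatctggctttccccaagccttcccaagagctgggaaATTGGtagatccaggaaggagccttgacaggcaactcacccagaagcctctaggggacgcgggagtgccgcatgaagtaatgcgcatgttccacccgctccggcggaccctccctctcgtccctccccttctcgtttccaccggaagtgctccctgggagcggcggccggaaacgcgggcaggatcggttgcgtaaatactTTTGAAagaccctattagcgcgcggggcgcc
Cenpf, chr1:189688037-189688336, minus strand: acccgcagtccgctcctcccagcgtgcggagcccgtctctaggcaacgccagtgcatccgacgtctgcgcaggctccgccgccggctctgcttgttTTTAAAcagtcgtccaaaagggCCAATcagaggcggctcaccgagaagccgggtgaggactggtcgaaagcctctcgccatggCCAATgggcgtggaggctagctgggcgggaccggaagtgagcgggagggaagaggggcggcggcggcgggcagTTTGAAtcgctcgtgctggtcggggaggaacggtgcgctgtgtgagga

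In the Cenpa window TTTGAA begins at base 17 counted from the start site, in that of Hjurp at base 20 and in that of Cenpf at base 3. Cenpa also holds TTTAAA 17 bases before the start site and 2 CCAAT boxes, which read ATTGG on the strand shown. TTTGAA occurs in 17.9% of 32851 mouse promoter windows of the same length, TTTAAA in 13.2% and CCAAT in 37.4%. Of 23 division reference genes with a window, 14 hold TTTGAA and 21 hold CCAAT. Among the other members, Oip5 and Cenpn hold TTTGAA, Cenpc1 and Cenpe hold TTTAAA, and Mis18a holds neither form nor CCAAT. The Cenpa window alone among the 8 holds AGATAA, read as TTATCT 80 bases before the start site, a motif present in 11.2% of windows. It also holds CATCTG 177 bases before the start site, as 17.2% of windows do in either orientation, and Mis18a holds it too. No member's window holds the MEF2 motif (CTA and TAG with any 4 bases between them), present in 3.69% of windows, or the T-box motif GGTGTGA, present in 3.98%. All positions are counted from the RefSeq start sites. The GENCODE M21 annotation begins Cenpa at 30666777 and Hjurp at 88277633, inside these windows and upstream of the RefSeq sites. Positions before or after a start site therefore depend on the gene model. A match to letters is a description of the sequence and was not tied to binding.

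Cenpa (ENSMUSG00000029177) lies on the plus strand of chromosome 5 at 30666777 to 30674830 (GRCm38, GENCODE M21), and no other gene's exons overlap its own. Levels below are CPM after scaling by library composition (TMM). In mock cells Cenpa was at 39.7, 35.5 and 39.4 CPM in the 3 libraries of day 2 and at 24.3, 24.8 and 24.4 CPM in those of day 7. With GMT it was at 121, 118 and 118 CPM at day 2 and at 206, 210.5 and 204 CPM at day 7. With GHMT it was at 109, 110 and 112 CPM at day 2 and at 120.3, 133 and 124 CPM at day 7. Every GMT and GHMT library was above every mock library. With AGHMT it was at 96.3, 89.8 and 106 CPM at day 2 and at 160, 152 and 152 CPM at day 7, again above all mock libraries. At day 7 the 3 cocktails did not overlap each other, with GMT highest and GHMT lowest. At day 2 their order was GMT, GHMT, AGHMT, again without overlap.

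The difference of Cenpa from mock, as a log2 fold change ± SE, was 1.64 ± 0.05 with GMT, 1.53 ± 0.05 with GHMT and 1.35 ± 0.05 with AGHMT at day 2. At day 7 it was 3.08 ± 0.06, 2.36 ± 0.06 and 2.66 ± 0.06, which are 8.43-fold, 5.14-fold and 6.31-fold. Part of the larger difference at day 7 lay in the mock cells, in which Cenpa was lower at day 7 than at day 2.

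**Figure D1:**
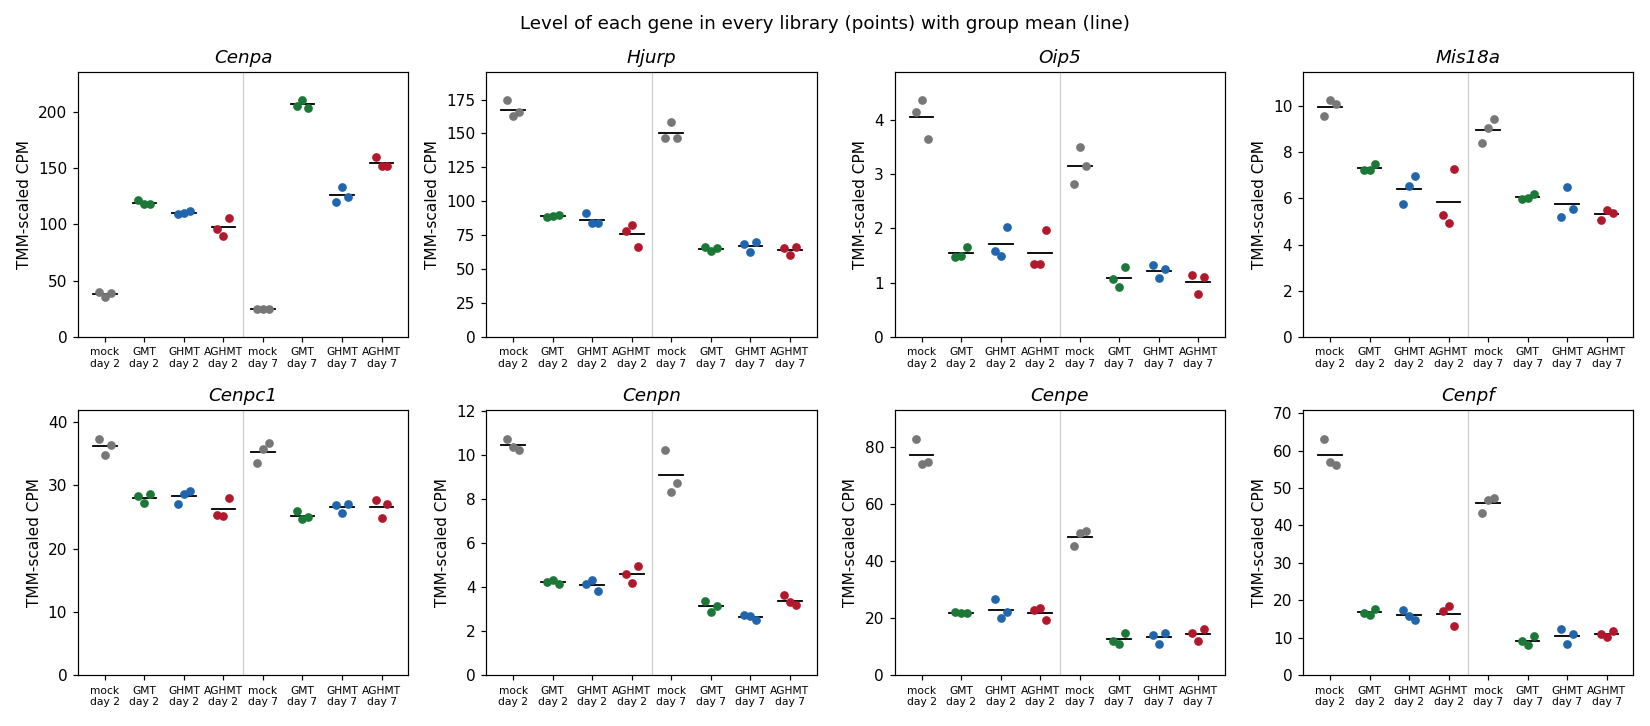
Each panel plots TMM-scaled CPM (vertical axis from 0) of 1 gene in the 24 libraries (points, grouped by treatment and day on the horizontal axis), with the group mean as a line. Cenpa reaches 206.7 CPM on average with GMT at day 7 against 24.5 CPM in mock, while the 7 partners lie lower in every cocktail group than in mock of the same day.

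Hjurp (ENSMUSG00000044783, chromosome 1, 88262471 to 88277633, minus strand), the CENP-A chaperone, went the other way. It was at 146, 159 and 147 CPM in mock at day 7, against 66.6, 63.3 and 65.5 CPM with GMT, 68.8, 62.9 and 69.7 CPM with GHMT and 65.4, 60.2 and 66.3 CPM with AGHMT. The cocktails overlapped each other and none overlapped mock. Its log2 difference from mock was -1.21 ± 0.06, -1.17 ± 0.06 and -1.24 ± 0.06 with GMT, GHMT and AGHMT at day 7, and -0.91 ± 0.06, -0.96 ± 0.06 and -1.15 ± 0.06 at day 2.

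Both Mis18 subunits also stood lower, at much lower levels. Oip5 (ENSMUSG00000072980, chromosome 2, 119609512 to 119618469, minus strand) was at 2.81, 3.50 and 3.14 CPM in mock at day 7 and at 1.07, 0.913 and 1.29 CPM with GMT, from 32 to 48 reads per GMT library. Its differences from mock at day 7 were -1.52 ± 0.17, -1.37 ± 0.16 and -1.64 ± 0.17 (log2). The exons of Oip5 share 172 bases with Nusap1, a spindle gene on the opposite strand, and the strand setting of the counting is not given in the sources used here, so reads of both genes cannot be told apart there. Nusap1 itself stood at 5.12 ± 0.67 CPM with GMT and 23.6 ± 1.70 CPM in mock at day 7 (SD, n = 3).

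Mis18a (ENSMUSG00000022978, chromosome 16, 90719312 to 90727404, minus strand) differed less. It was at 8.39, 9.07 and 9.44 CPM in mock at day 7, at 5.96, 6.02 and 6.18 CPM with GMT, at 5.21, 6.50 and 5.54 CPM with GHMT and at 5.06, 5.51 and 5.35 CPM with AGHMT. The cocktails overlapped each other and stayed under mock. Its log2 differences from mock at day 7 were -0.57 ± 0.10, -0.64 ± 0.11 and -0.76 ± 0.11.

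Of the proteins that bind the CENP-A nucleosome, Cenpc1 (CENP-C; ENSMUSG00000029253, chromosome 5, 86012024 to 86065583, minus strand) differed least of all members and Cenpn by several times as much on the log2 scale. Cenpc1 was at 33.6, 35.8 and 36.6 CPM in mock at day 7 and at 25.9, 24.7 and 24.9 CPM with GMT, and its day 7 differences from mock were -0.49 ± 0.05, -0.41 ± 0.05 and -0.41 ± 0.05. Cenpn (ENSMUSG00000031756, chromosome 8, 116921730 to 116941507, plus strand) was at 10.2, 8.32 and 8.71 CPM in mock at day 7 and at 3.35, 2.88 and 3.14 CPM with GMT, with differences of -1.54 ± 0.09, -1.77 ± 0.09 and -1.43 ± 0.09. For both genes every cocktail library of day 7 was under every mock library of day 7.

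The 2 genes of the outer layer stood furthest below mock. Cenpe (ENSMUSG00000045328, chromosome 3, 135212537 to 135273611, plus strand) was at 45.1, 49.7 and 50.4 CPM in mock and at 12.0, 11.0 and 14.6 CPM with GMT at day 7, with differences from mock of -1.94 ± 0.12, -1.88 ± 0.12 and -1.76 ± 0.12 across GMT, GHMT and AGHMT. Cenpf (ENSMUSG00000026605, chromosome 1, 189640606 to 189688086, minus strand) was at 43.4, 46.9 and 47.3 CPM in mock and at 9.07, 8.11 and 10.3 CPM with GMT, with differences of -2.32 ± 0.11, -2.12 ± 0.11 and -2.06 ± 0.11. For comparison, those of the proliferation marker Mki67 were -2.46, -2.18 and -2.22 at day 7.

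**Figure D2:**
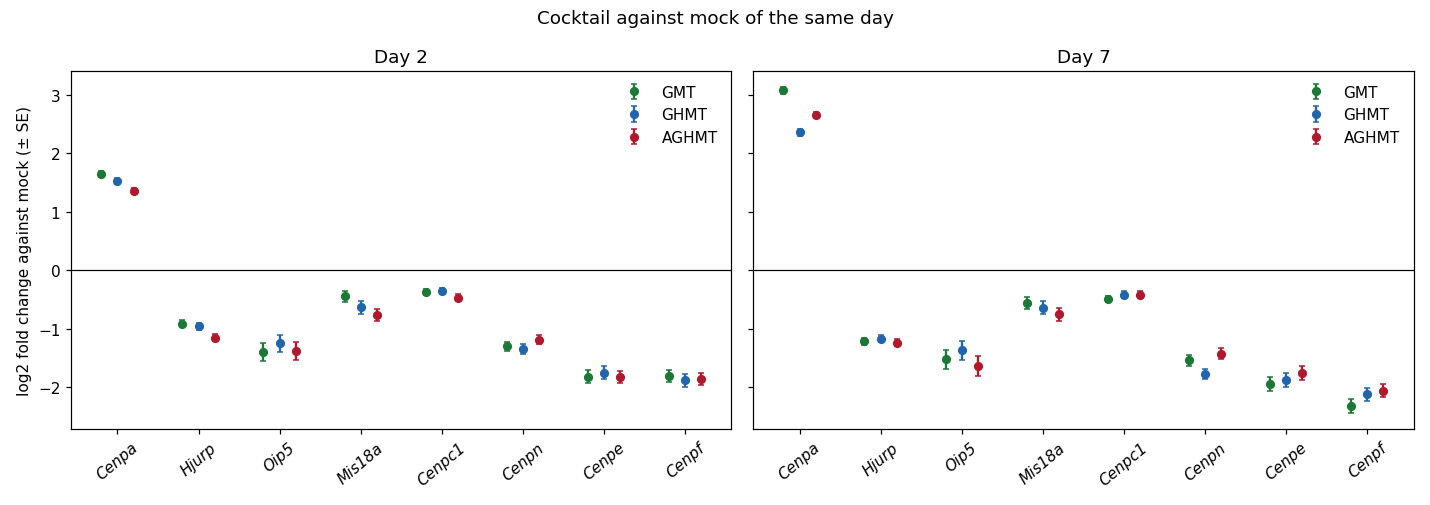
The vertical axis is the log2 fold change of each cocktail against mock of the same day (points, with bars of 1 SE, from edgeR over 24 libraries), for the 8 genes on the horizontal axis at day 2 (left) and day 7 (right). Cenpa lies at 1.35 to 1.64 at day 2 and at 2.36 to 3.08 at day 7, and the other 7 genes lie below 0 at both days.

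The members Hjurp, Oip5, Mis18a, Cenpc1 and Cenpn were counted against mock by edgeR's quasi-likelihood test at an adjusted p under 0.05, and 5 of 5 were lower with each of the 3 cocktails at each day. Of all tested genes 33.1%, 33.3% and 37.4% were lower with GMT, GHMT and AGHMT at day 2, and 36.0%, 35.6% and 38.1% at day 7. Higher were 33.9%, 34.9% and 38.0% at day 2 and 37.1%, 36.3% and 38.6% at day 7. The median log2 difference of these 5 genes at day 7 was -1.21, -1.17 and -1.24, and that of all tested genes was 0.01, 0.0023 and -0.0033. Since the choice of members used these contrasts, nothing is read from the count. RNA of a culture was measured as a whole, so fewer cells of a kind and less RNA per cell cannot be told apart. Macrophage markers moved with the mock groups: the sum of 11 of them was 384 to 558 CPM in mock at day 7, 52.8 to 53.9 CPM in mock at day 2, 41.3 to 66.6 CPM with cocktails at day 7 and 13.1 to 48.9 CPM at day 2, with none at 0 in any group. The sum of 8 cardiomyocyte markers was 14.0 to 24.1 CPM in mock, 4351 to 11325 CPM with cocktails at day 2 and 10038 to 21503 CPM at day 7, also with none at 0. Their part in the values of the 8 genes was not tested.

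Levels of different genes are compared per kilobase of exon (CPM per kb, union of annotated exons). In mock cells at day 7 Hjurp was highest, at 18.1 ± 0.83 (SD, n = 3), followed by Cenpc1 at 6.27 ± 0.28, Cenpe at 5.61 ± 0.33 and Cenpa at 4.18 ± 0.04. Mis18a at 3.13 ± 0.19, Cenpf at 2.97 ± 0.14 and Cenpn at 2.76 ± 0.31 came next and lay within each other's spread, and Oip5 was lowest at 1.77 ± 0.19. With GMT at day 7 Cenpa was first at 35.3 ± 0.58, followed by Hjurp at 7.82 ± 0.20, Cenpc1 at 4.47 ± 0.11 and Mis18a at 2.11 ± 0.04. Cenpe followed at 1.46 ± 0.22 and Cenpn at 0.949 ± 0.07, and Oip5 at 0.613 ± 0.11 and Cenpf at 0.594 ± 0.07 could not be placed in order. Cenpa thus moved from the fourth place among the 8 genes to the first. With the longest transcript as the length, Cenpa in mock was at 6.44 and Cenpe at 6.12 CPM per kb, so that the order of these 2 in mock depends on the gene model, while Cenpa remained first with GMT, at 54.3 against 13.4 for Hjurp.

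Within each library, Cenpa was set against its partners per kilobase. In mock cells Cenpa was below its chaperone Hjurp, with a mean ratio of 0.323 at day 2 and 0.231 at day 7. With cocktails it was above, at 1.90, 1.82 and 1.83 with GMT, GHMT and AGHMT at day 2 and at 4.51, 2.67 and 3.44 at day 7. The ratio to Cenpc1 was 1.01 and 0.667 in mock at day 2 and day 7, and 7.90, 4.56 and 5.62 with the 3 cocktails at day 7. The ratio to Mis18a went from 1.34 in mock to 16.7 with GMT at day 7, and that to Oip5 from 2.37 to 58.1. The latter rests on few Oip5 reads: its mean log2 ratio was 5.86, and 4.92 with a pseudocount of 1 CPM. These are ratios of transcripts, no measure of protein.

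**Figure D3:**
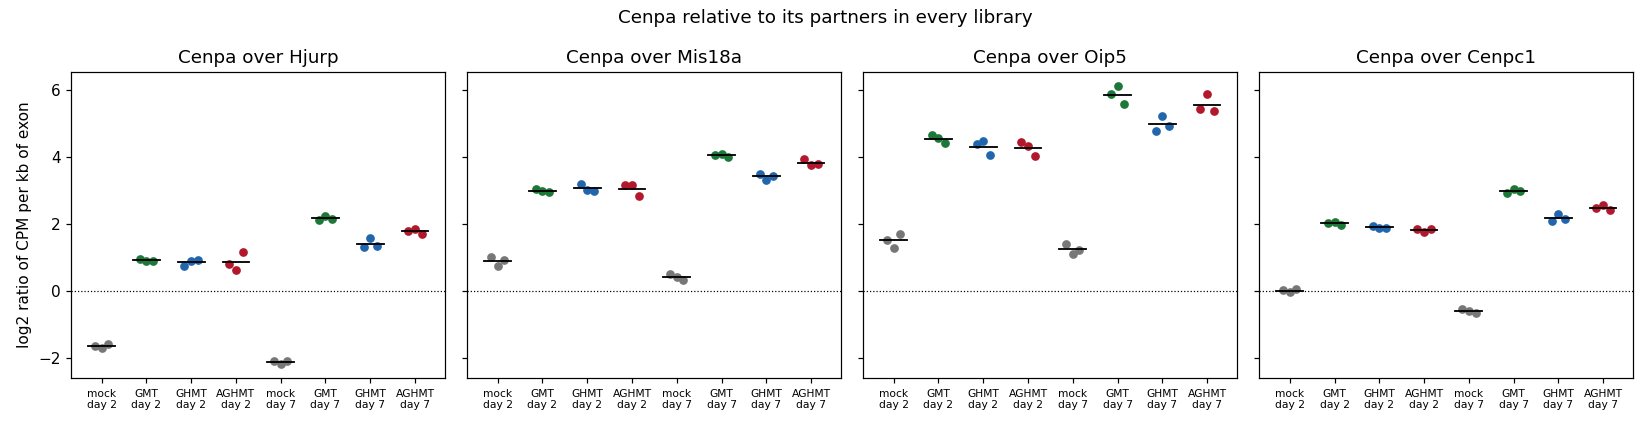
Each panel plots the log2 ratio of Cenpa to 1 partner in CPM per kb of exon (vertical axis) in every library (points) with the group mean (line), and the dotted line marks equal levels. The ratio to Hjurp lies at -1.63 and -2.11 in mock and between 0.86 and 2.17 in the cocktail groups.

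Adding Hand2 to GMT was associated with less Cenpa and with no called difference in its partners. The shared factors also differed between these arms. With GHMT and GMT at day 7, Gata4 was at 1091 to 1241 and 991 to 1047 CPM. Mef2c was at 1976 to 2038 and 1647 to 1738 CPM, and Tbx5 at 2675 to 2794 and 2278 to 2399 CPM. Their part in the values was not tested. At day 7 Cenpa was lower with GHMT than with GMT by a log2 difference of -0.72 ± 0.05, a level 1.64 times lower (edgeR, adjusted p = 1.31e-11; no overlap between the 3 libraries of each group). Cenpa was the 1 of 8 members called, where 37.5% of all tested genes were called. The differences of the other 7 ran from -0.23 ± 0.11 for Cenpn to 0.20 ± 0.13 for Cenpf, and their 95% intervals were widest for Oip5 (-0.25 to 0.55) and narrowest for Cenpc1 (-0.03 to 0.19). Without GHMT day 7 replicate 2, Cenpf was called as well, at 0.35 (edgeR, adjusted p = 0.025). At day 2 none of the 8 genes was called, where 44.8% of tested genes were. DESeq2 also called 0 of them, and 1 had an unadjusted p under 0.05 in edgeR. Cenpa differed by -0.11 ± 0.05 (edgeR, adjusted p = 0.077; 95% interval -0.22 to -0.0074), and it was called when only the 6 libraries compared were fitted (edgeR, adjusted p = 0.011). The difference of the Hand2 effect on Cenpa between the days was -0.60 ± 0.07 (edgeR interaction, adjusted p = 9.52e-07), the 1 of 8 members called where 16.6% of tested genes were.

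Adding Akt1 to GHMT went with lower Cenpa at day 2 and higher Cenpa at day 7. The shared factors also differed between these arms. With AGHMT and GHMT, Gata4 was at 626 to 636 and 1091 to 1241 CPM at day 7. Tbx5 was at 1700 to 1746 and 2675 to 2794 CPM, and Mef2c at 1619 to 1658 and 1976 to 2038 CPM. At day 2 Gata4 was at 1106 to 1176 and 1426 to 1508 CPM. Their part in the values was not tested. At day 7 Cenpa was higher with AGHMT than with GHMT by 0.30 ± 0.05 on the log2 scale, or 1.23-fold (edgeR, adjusted p = 2.32e-05), and Cenpn was higher by 0.35 ± 0.11 (edgeR, adjusted p = 0.0089). These were 2 of 8 members, where 48.7% of tested genes were called. Without AGHMT day 7 replicate 1, Cenpn was not called, at 0.29 (edgeR, adjusted p = 0.064). At day 2 Cenpa was lower by -0.18 ± 0.05 (edgeR, adjusted p = 0.0044) and Hjurp by -0.19 ± 0.06 (edgeR, adjusted p = 0.010), 2 of 8 where 52.7% of tested genes were called. Macrophage markers moved with this comparison, 11 of 11 being lower with AGHMT (median log2 difference -1.29; summed level 13.1 to 16.8 CPM against 31.8 to 38.2 CPM with GHMT), and their part in it was not tested.

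With 1 library left out at a time, the Cenpa call at day 2 was lost in 1 of 6 cases and the Hjurp call in 2 of 6. Without AGHMT day 2 replicate 2, Cenpa was at -0.12 (edgeR, adjusted p = 0.055). Hjurp was at -0.096 without AGHMT day 2 replicate 3, the library that stood apart (edgeR, adjusted p = 0.13), and at -0.15 without GHMT day 2 replicate 1 (edgeR, adjusted p = 0.070). Fitted on the 6 libraries compared alone, Cenpa was at -0.17 and Hjurp at -0.18, and neither was called (edgeR, adjusted p = 0.081 and 0.13). Without AGHMT day 2 replicate 3, Mis18a at -0.32 and Cenpc1 at -0.15 were called lower (edgeR, adjusted p = 0.0084 and 0.026), and Cenpa stayed called. The Akt1 effect on Cenpa at day 7 exceeded that at day 2 by 0.48 ± 0.07 (edgeR interaction, adjusted p = 1.89e-05), again 1 of 8 where 22.3% of tested genes were called.

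From day 2 to day 7 Cenpa fell in mock cells and rose in all 3 cocktail arms. Since Cenpa was chosen for its difference between these mock and cocktail libraries, the p-values here are not independent of that choice. In mock it changed by -0.64 ± 0.06 (edgeR, adjusted p = 6.64e-10). It rose by 0.79 ± 0.05 with GMT (edgeR, adjusted p = 2.11e-12), by 0.19 ± 0.05 with GHMT (edgeR, adjusted p = 0.0030) and by 0.67 ± 0.05 with AGHMT (edgeR, adjusted p = 3.99e-11). In the GHMT arm the 3 libraries of day 7 lay between 120.3 and 133 CPM and those of day 2 between 109 and 112 CPM, without overlap.

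The partners moved down in all 4 arms where they were called. In mock cells 6 of 8 members were lower at day 7, Cenpa included, where 25.8% of all tested genes were lower and 29.7% higher. Cenpe changed most, by -0.67 ± 0.10 (edgeR, adjusted p = 5.09e-06), and Cenpf by -0.36 ± 0.10 (edgeR, adjusted p = 0.0033). The mock calls of Hjurp (-0.15 ± 0.06), Oip5 (-0.37 ± 0.13) and Cenpn (-0.20 ± 0.08) each had an edgeR adjusted p between 0.023 and 0.030. All 3 were lost without mock day 2 replicate 1, at adjusted p = 0.12, 0.058 and 0.091, and without mock day 7 replicate 3, at 0.11, 0.053 and 0.11. With mock day 2 replicate 2 left out Oip5 and Cenpn were lost (edgeR, adjusted p = 0.097 and 0.056), without mock day 7 replicate 1 Hjurp and Oip5 (0.12 and 0.11), and without mock day 7 replicate 2 Cenpn (0.17). Macrophage markers, 11 of 11 of them higher in mock at day 7 than at day 2 with a median log2 difference of 3.11, moved with this comparison, and their part in it was not tested.

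With GMT 7 of 8 members were lower at day 7 than at day 2 and Cenpa was higher, where 24.4% of tested genes were lower and 27.5% higher. Cenpf changed by -0.87 ± 0.12 (edgeR, adjusted p = 1.29e-06), Cenpe by -0.80 ± 0.12 (edgeR, adjusted p = 5.17e-06), and Hjurp by -0.45 ± 0.06 (edgeR, adjusted p = 1.08e-06). Cenpn changed by -0.44 ± 0.10 (edgeR, adjusted p = 0.00056). The remaining 3 calls were weaker. Mis18a at -0.27 ± 0.11 (edgeR, adjusted p = 0.034) was not called with any 1 of the 6 GMT libraries left out, at adjusted p from 0.053 to 0.080. Oip5 at -0.49 ± 0.18 (edgeR, adjusted p = 0.029) was not called without GMT day 2 replicate 3, GMT day 7 replicate 1 or GMT day 7 replicate 2, at 0.083, 0.068 and 0.13, and Cenpc1 at -0.16 ± 0.05 (edgeR, adjusted p = 0.016) not without GMT day 7 replicate 2, at 0.057.

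With GHMT and with AGHMT 5 of 8 members were lower at day 7, namely Hjurp, Oip5, Cenpn, Cenpe and Cenpf, and Cenpa was higher, where 24.6% and 24.9% of tested genes were lower and 25.6% and 29.5% higher. Hjurp changed by -0.36 ± 0.06 with GHMT and by -0.24 ± 0.06 with AGHMT, and Cenpn by -0.62 ± 0.10 and -0.44 ± 0.10. Cenpe changed by -0.80 ± 0.12 and -0.61 ± 0.12, and Cenpf by -0.60 ± 0.12 and -0.55 ± 0.12. Oip5 changed by -0.49 ± 0.18 with GHMT (edgeR, adjusted p = 0.032) and was not called without GHMT day 2 replicate 3, GHMT day 7 replicate 2 or GHMT day 7 replicate 3, at adjusted p = 0.18, 0.12 and 0.053. With AGHMT it changed by -0.63 ± 0.19 (edgeR, adjusted p = 0.0082) and was not called without AGHMT day 2 replicate 3 or AGHMT day 7 replicate 2, at 0.068 and 0.057. Mis18a and Cenpc1 were not called between the days in mock, GHMT or AGHMT, with values between -0.16 and 0.016. Without AGHMT day 2 replicate 2, Mis18a was called with AGHMT, at -0.28 (edgeR, adjusted p = 0.041). Markers of other cell types moved between the days in these arms as well. Macrophage markers were higher at day 7 for 11 of 11 with AGHMT (median log2 difference 1.4) and 5 of 11 with GHMT (0.59), and with GMT 1 was higher and 1 lower. Cardiomyocyte markers were higher for 8 of 8 in each of the 3 arms, with medians of 1.66, 1.65 and 1.6 for GMT, GHMT and AGHMT, and the part of either list in the values was not tested.

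The difference from mock was also set against itself between the days, again as a description, since it is built from the contrasts that chose the members. For Hjurp, day 7 minus day 2 of the log2 difference from mock was -0.30 ± 0.09 with GMT and -0.21 ± 0.09 with GHMT, and for Cenpn it was -0.42 ± 0.13 with GHMT. By edgeR's adjusted p 1, 2 and 0 of the 5 members counted passed with GMT, GHMT and AGHMT, where 49.5%, 49.3% and 50.9% of tested genes did, and nothing is read from these counts. With AGHMT 0 of the 5 had an unadjusted p under 0.05 in edgeR, and DESeq2 called 0.

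Over the 24 libraries, Pearson's r of Cenpa with each partner (log2 of CPM + 1) was -0.93 for Hjurp, -0.90 for Oip5, -0.79 for Mis18a, -0.91 for Cenpc1, -0.92 for Cenpn, -0.90 for Cenpe and -0.94 for Cenpf. Among themselves the 7 partners had r between 0.84 and 0.99. The libraries fall into mock and cocktail groups, which all these genes separate, so these values describe that separation.

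The wider centromere and kinetochore genes were counted from lists chosen with earlier results of these data known, which hold the members too, other than Cenpa. Of 47 genes of the inner centromere network, outer kinetochore, corona with spindle checkpoint, and passenger complex with cohesion guards, 44 were lower than mock with GMT, 45 with GHMT and 45 with AGHMT at day 7, and 2 were higher with each. Their median log2 differences were -1.23, -1.17 and -1.01. At day 2, 44, 44 and 42 of the 47 were lower and 2, 2 and 4 higher. The 2 that were higher at both days with every cocktail were Stra13 (CENP-X), a small histone-fold protein of the inner network, and Zwint, an outer kinetochore protein that anchors the checkpoint scaffold. As for the members, these counts stand beside the shares of all genes given above and nothing is read from them.

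Stra13 was at 18.9, 19.6 and 20.2 CPM with GMT, GHMT and AGHMT at day 7 and at 14.4 CPM in mock, log2 differences of 0.39, 0.45 and 0.48. Zwint was at 297, 247 and 267 CPM against 118 CPM in mock, differences of 1.33, 1.07 and 1.18. Zwint shared with Cenpa that it was lower with GHMT than with GMT at day 7, by -0.27 ± 0.06 (edgeR, adjusted p = 0.00041). It also fell from day 2 to day 7 in mock by 0.31 on the log2 scale (edgeR, adjusted p = 5.01e-05), and rose with GMT by 0.46 (edgeR, adjusted p = 1.68e-07). Zwint was itself named for being higher than mock with all 3 cocktails at day 7. These day tests use the same libraries, so their p-values are not independent of that choice. Unlike Cenpa it was higher with AGHMT than with GHMT at day 2, by 0.40 ± 0.06 (edgeR, adjusted p = 1.23e-06). From day 2 to day 7 with AGHMT, where Cenpa rose by 0.67, Zwint was not called higher.

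Of 15 genes of CENP-A loading and licensing, 13 were lower than mock at day 7 with each cocktail, with medians of -1.09, -1.17 and -1.24, beside 36.0%, 35.6% and 38.1% of all tested genes. Higher were Rsf1, a chromatin remodelling subunit, with GMT (0.20), Rbbp4, a histone-binding protein, with GHMT (0.20), and both with AGHMT (0.33 and 0.45). Cenph of the inner network differed by -1.17, -1.29 and -1.42, and Ndc80 and Nuf2, which form the microtubule-binding complex, by -2.00 and -2.32 with GMT. Aurkb and Incenp of the passenger complex differed by -1.84 and -1.23 with GMT. All 25 division reference genes, such as Mki67 and Top2a, were lower with each cocktail, with medians of -1.59, -1.52 and -1.59.

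**Figure D4:**
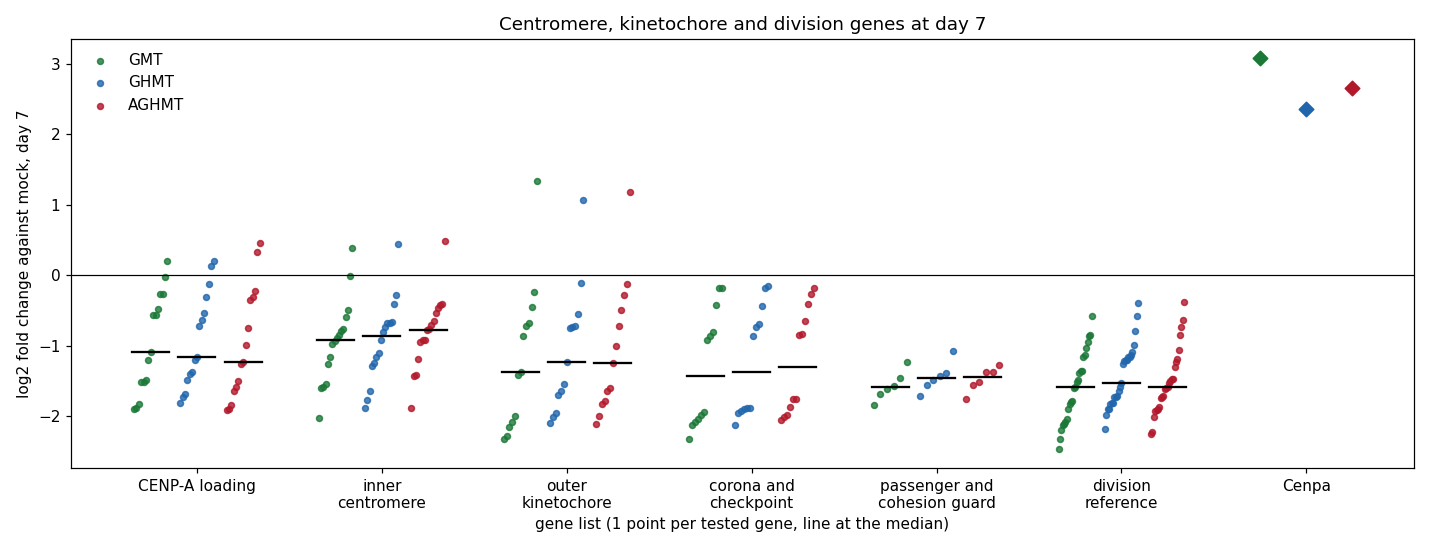
The vertical axis is the log2 fold change of each cocktail against mock at day 7, with 1 point per tested gene of each list on the horizontal axis (colours for GMT, GHMT and AGHMT) and a line at the list's median. Diamonds show Cenpa at 3.08, 2.36 and 2.66, above every gene of the 6 lists drawn (CENP-A loading, inner centromere, outer kinetochore, corona and checkpoint, passenger and cohesion guard, division reference), of which Zwint is the highest at 1.33, 1.07 and 1.18.

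The 47 genes were also counted between the cocktails. At day 7, 5 were higher and 3 lower with GHMT than with GMT, where 37.5% of all tested genes were called, and 6 higher and 2 lower with AGHMT than with GHMT, where 48.7% were. At day 2, 4 were higher and 2 lower with GHMT than with GMT (44.8% of all tested genes called), and 9 higher and 1 lower with AGHMT than with GHMT (52.7%), the latter 3 without AGHMT day 2 replicate 3. From day 2 to day 7, 29 were lower in mock, 34 with GMT, 30 with GHMT and 34 with AGHMT, where 25.8%, 24.4%, 24.6% and 24.9% of all tested genes were lower, and 1 was higher in each: Stra13 in mock, Zwint with GMT and with GHMT, and Ska2, of the outer kinetochore, with AGHMT.

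Other chromatin genes stood on both sides of mock at day 7, more of them lower than higher. Of 9 histone variants outside the centromere, 6, 5 and 6 were lower and 2, 3 and 3 higher with GMT, GHMT and AGHMT. Of all tested genes 36.0%, 35.6% and 38.1% were lower and 37.1%, 36.3% and 38.6% higher. Nothing is read from the counts of either list. H2afj and H3f3a, which encodes the replication-independent H3.3, were higher with all 3 cocktails, H3f3a by 0.17, 0.69 and 0.66. H2afz was lower, by -0.49, -0.57 and -0.48, and H2afv differed by -0.40 and -0.0049 with GMT and GHMT and by 0.76 with AGHMT. Of 13 histone chaperones, 10, 10 and 8 were lower and 2, 2 and 1 higher. Asf1a was higher with all 3 cocktails, by 1.67, 0.66 and 0.82. Its paralog Asf1b, which is tied to proliferation, was lower, by -0.77, -0.67 and -0.73.

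Of 15 regulators of division genes, 9, 10 and 10 were lower than mock at day 7 with GMT, GHMT and AGHMT, and 4, 4 and 3 higher. Of all tested genes 36.0%, 35.6% and 38.1% were lower and 37.1%, 36.3% and 38.6% higher, and nothing is read from the counts. Those higher with all 3 cocktails were Lin52, Rb1 and Rbl2. Lin52 belongs to the MuvB core that binds the CHR, Rb1 is the retinoblastoma protein and Rbl2 (p130) its relative in the DREAM complex. Their differences at day 7 were 0.65, 0.66 and 0.96 for Lin52, 0.42, 0.20 and 0.60 for Rb1 and 0.28, 0.22 and 0.31 for Rbl2. E2f1 and E2f2, activators of S phase genes, were lower, E2f1 by -0.34, -0.36 and -0.45 and E2f2 by -1.42, -0.81 and -0.60. Of 8 other centromere proteins, 5, 5 and 6 were lower and 2, 2 and 1 higher. Suv39h1, a histone H3 lysine 9 methyltransferase of pericentric chromatin, was higher by 2.79, 3.83 and 2.59. Its level was 17.5 CPM in mock and 121, 248 and 105 CPM with the cocktails. Cenpb, which binds a short motif in centromere repeats, was lower by -0.85, -0.69 and -0.78, and Cenpv differed by 0.11, -0.0066 and -0.04.

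The genes next to Cenpa on chromosome 5 were compared with it, since they share its surroundings. Slc35f6, a solute carrier, is on the same strand and ends 7047 bases before Cenpa begins. It was at 45.3 ± 2.07 CPM in mock and at 190.9 ± 6.05, 115 ± 3.42 and 113 ± 2.72 CPM with GMT, GHMT and AGHMT at day 7 (SD, n = 3 each), log2 differences from mock of 2.07, 1.34 and 1.32. Over the 24 libraries its r with Cenpa was 0.96, rank 43 of 11615 genes compared. Like Cenpa it was lower with GHMT than with GMT at day 7, by -0.73 ± 0.04 (edgeR, adjusted p = 5.57e-14). Slc35f6 was also called in the direction of Cenpa between the days with GMT, GHMT and AGHMT, at 0.57, 0.21 and 0.39, and for AGHMT against GHMT at day 2, at -0.21 (edgeR, adjusted p = 0.00010). The day differences of the Hand2 and Akt1 effects were likewise called, at -0.37 and 0.18 (edgeR, adjusted p = 2.67e-05 and 0.021). Of the comparisons in which Cenpa was called, Slc35f6 was not called for AGHMT against GHMT at day 7, at -0.03 ± 0.04 (edgeR, adjusted p = 0.61), or for mock at day 7 against day 2, at -0.06 ± 0.04 (edgeR, adjusted p = 0.23). For GHMT against GMT at day 2, where Cenpa was not called, Slc35f6 was lower by -0.36 ± 0.04 (edgeR, adjusted p = 2.48e-08).

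Dpysl5, a cytoskeleton regulator of neurons, begins 36733 bases beyond the end of Cenpa. It was at 2.63 ± 0.19 CPM in mock and at 14.2 ± 0.65, 106 ± 8.48 and 38.9 ± 1.75 CPM with GMT, GHMT and AGHMT at day 7 (SD, n = 3 each). It was higher, not lower, with GHMT than with GMT, by 2.90 ± 0.08 (edgeR, adjusted p = 7.18e-20), and its r with Cenpa was 0.68. Reads that run on from Slc35f6 into Cenpa could not be separated from Cenpa's own in a table of counts per gene.

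**Figure D5:**
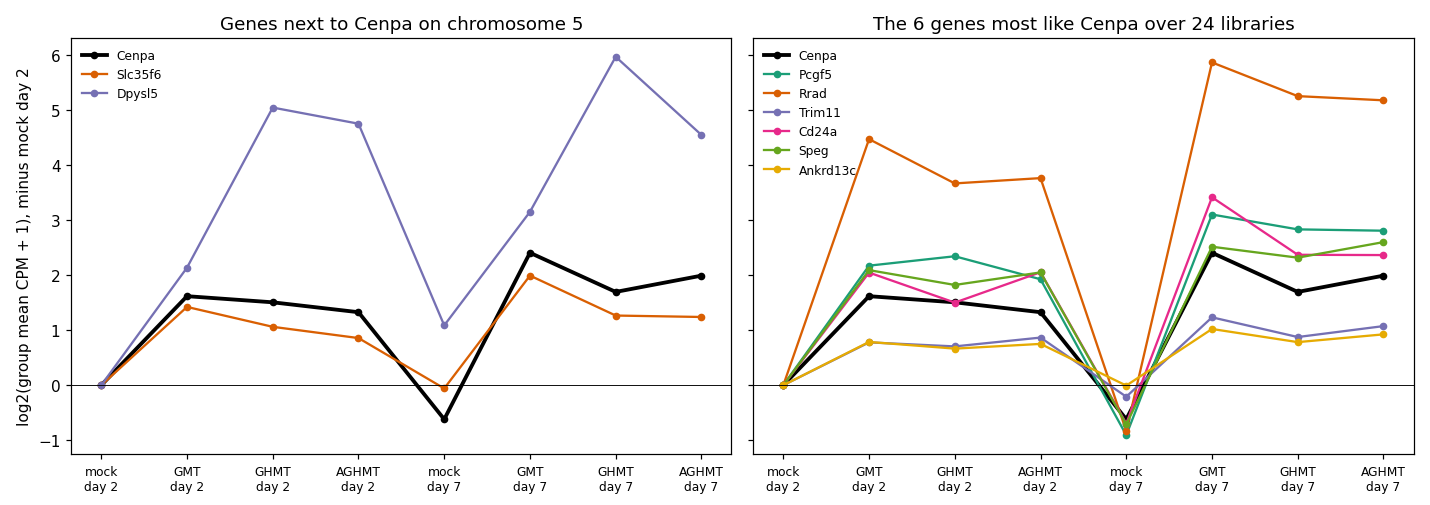
The vertical axis is log2 of the group mean CPM + 1 minus its value in mock at day 2, for the 8 groups on the horizontal axis, with Cenpa in black beside its 2 neighbours (left) and the 6 genes most like it (right). At day 7 both Cenpa and Slc35f6 are highest with GMT, while Cenpa is higher with AGHMT than with GHMT and Slc35f6 is at 113 and 115 CPM there; Dpysl5 is highest with GHMT.

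The 6 genes most like Cenpa over the 24 libraries, by Pearson's r of log2(CPM + 1) among 11615 genes with at least 5 CPM in a group, were Pcgf5, Rrad, Trim11, Cd24a, Speg and Ankrd13c, with r from 0.976 to 0.987. Pcgf5, a Polycomb group RING finger protein, was at 6.28 ± 0.24 CPM in mock and at 116 ± 4.57, 96.2 ± 3.18 and 94.6 ± 1.6 CPM with GMT, GHMT and AGHMT at day 7. Rrad, a small GTPase of muscle that restrains calcium channels, was at 3.80 ± 0.08 CPM in mock and at 498 ± 10.5, 325 ± 22.2 and 308 ± 4.16 CPM. Speg, a kinase of striated muscle, was at 31.9 ± 1.45 CPM in mock and at 307 ± 4.46, 267 ± 3.38 and 325 ± 7.60 CPM. Cd24a was at 35.8 ± 1.32 CPM in mock and at 635 ± 3.79, 307 ± 9.87 and 306 ± 5.86 CPM. Trim11 and Ankrd13c differed less. Trim11 was at 49.7 ± 2.28 CPM in mock and at 137 ± 3.18, 107 ± 4.23 and 122 ± 3.98 CPM. Ankrd13c was at 40.4 ± 1.66 CPM in mock and at 83.5 ± 2.42, 70.6 ± 0.72 and 78.0 ± 3.02 CPM. As for the partners, r here largely describes the separation of mock and cocktail groups. By means of the 8 groups, 4 of the 6 stayed among the first 6, and Tmc7 and Fbxo28 took the places of Speg and Ankrd13c.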

How the data were processed

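Total RNA of 24 libraries was measured by RNA sequencing, grouped and numbered as the labels give. The values are raw read counts per gene as deposited by the authors. Tools listed in the submitters' processing notes, with no role stated, are the trimmer Trim Galore 0.4.1, the aligner HISAT2 2.0.1, the counter featureCounts 1.4.6 and the package DESeq2 1.6.3, on build GRCm38 (also called mm10). For the annotation release and the strand setting, nothing is given in the sources used here. A deposited table of log2 values was not used.

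Genes were filtered with edgeR's filterByExpr, scaled by TMM and tested in R 4.3.3 by the two-sided quasi-likelihood F test of edgeR 4.0.16, in 1 model of the 8 group means (24 libraries, 16 residual degrees of freedom, biological coefficient of variation 5.55%). An adjusted p (Benjamini-Hochberg over 17576 genes) under 0.05 was a call. Standard errors were derived from the F statistic. The method was also run on counts simulated from the GHMT and GMT libraries of day 7 alone. That setting differs from the model of 8 groups, so it does not test the reported fit. Alternatives tried were a replicate block, leaving out each library, fitting only the libraries compared, dropping the low-count filter, RLE size factors, and DESeq2 1.42.0. Exon lengths come from GENCODE M21, and 99.7% of tested genes matched it.

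The members, gene lists, motifs and tests were chosen with earlier results of these data known. All 8 members were named. From each list, the genes higher than mock under all 3 cocktails at day 7 and the first 2 genes tested were named, besides the 6 genes most like Cenpa and its neighbours. Ska2, Rsf1 and Rbbp4 fall outside this rule and were named after their values were seen. No 2 replicates agreed within sampling noise (lowest chi-square per degree of freedom 1.54), so none was merged as a second reading of the same library. This cannot show whether they are separate cultures. Each library counted as 1. Deviations from the group means of same-numbered libraries correlated between -0.21 and 0.27, with a mean of 0.00072. Differently numbered libraries were not set beside them, so this cannot exclude that the numbers pair some samples. The main fit has no replicate block. Total counts of 29345957 to 37495178 limit precision for genes at a few reads, such as Oip5.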

Additional observations from a re-analysis of the deposited data

Results flagged for a closer look

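Effects of Hand2 and Akt1 on Cenpa differed between the days by an interaction term of edgeR. The Hand2 effect on Cenpa (GHMT against GMT) was lower at day 7 than at day 2 by -0.60 ± 0.07 on the log2 scale (edgeR, adjusted p = 9.52e-07). The Akt1 effect on Cenpa (AGHMT against GHMT) was higher at day 7 by 0.48 ± 0.07 (edgeR, adjusted p = 1.89e-05). Of all tested genes, 16.6% and 22.3% had a called difference of these 2 kinds. Levels of Gata4, Mef2c and Tbx5 differed between these arms as well, and their part in the values was not tested.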

How the results depend on the processing

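The counts of all genes called in the 19 comparisons stayed within 1.5 times of the reported ones under every alternative run. The number of members called moved in a few: for the day difference of the GHMT effect against mock it was 1 with DESeq2 and 1 with RLE size factors (2 reported), for mock at day 7 against day 2 it was 3 with no filter on low counts (6 reported), and with only the libraries compared it was 1 for GHMT against GMT at day 2 (0 reported) and 0 for AGHMT against GHMT at day 2 (2 reported).

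With 1 library left out, members called ranged from 1 to 3 for AGHMT against GHMT at day 2, 1 to 2 for the same at day 7 and for GHMT against GMT at day 7, 3 to 6 for mock between the days, 5 to 7 for GMT between the days, 1 to 2 for the GHMT and 0 to 1 for the AGHMT day difference against mock. Kinetochore genes called lower with AGHMT than with GHMT at day 2 went from 1 to 3 without AGHMT day 2 replicate 3, an alternative chosen after seeing the data.

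Small differences of uncalled members changed sign. Cenpc1 was at -0.0077 for GHMT against GMT at day 2 with no filter and at -0.012 for AGHMT between the days with only the libraries compared. With 1 library left out, ranges crossing 0 were, for AGHMT against GHMT at day 2, Cenpe -0.16 to 0.049, Cenpf -0.069 to 0.16 and Oip5 -0.33 to 0.020. At day 7 they were Cenpc1 -0.031 to 0.044, Cenpe -0.013 to 0.22 and Cenpf -0.086 to 0.198. For GHMT against GMT they were Cenpc1 -0.012 to 0.042, Cenpe -0.052 to 0.16 and Oip5 -0.0016 to 0.23 at day 2 and Cenpe -0.022 to 0.197 at day 7. Between the days they were Cenpc1 -0.061 to 0.0025 in mock and -0.047 to 0.060 with AGHMT, and Mis18a -0.28 to 0.014 with AGHMT.

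With the longest transcript as length, CPM per kb in mock and GMT at day 7 was 6.44 and 54.3 for Cenpa, 30.9 and 13.4 for Hjurp, 3.35 and 2.26 for Mis18a, 11.1 and 7.88 for Cenpc1, 4.12 and 0.823 for Cenpf and 3.64 and 1.25 for Cenpn, and 6.12 in mock for Cenpe. With a pseudocount of 1 CPM, the log2 ratio of Cenpa to Mis18a was 0.32 in mock and 3.85 with GMT at day 7, and to Oip5 0.90 and 4.92. The cause of these changes was not tested. Fitted with a replicate block, GHMT against GMT at day 7 called 1 member as before, and the replicate block moved no count of calls by over 1.5 times.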
